A study of Mus musculus with 12 samples.

Results

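The genes described here encode the nuclear subunits of the 5 complexes of oxidative phosphorylation, read in bone marrow hematopoietic stem cells (HSCs) with and without the m6A reader YTHDC1. Members were taken from the count table by symbol, as the genes beginning with Nduf, Uqcr, Atp5 or Cox4 to Cox8, together with Sdha, Sdhb, Sdhc, Sdhd and Cyc1. Entries whose symbol carries -ps were left out. The rule gave 99 of 55335 genes, with 36 genes of complex I and 8 assembly factors of that complex (Ndufaf genes), 4 of complex II, 9 of complex III, 20 of complex IV and 18 of complex V. The remaining 4 are annotated as processed pseudogenes (Cox6c2, Ndufs6b, Ndufb4c and Ndufa11b). The label fits the genes by their annotation, although the rule also takes in assembly factors and pseudogenes. No value measured in the libraries entered the choice.

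HSCs were sorted from 2 genotypes on a C57BL/6 background. Ythdc1Δ/Δ (KO) mice were Ythdc1 fl/fl and carried Mx1-Cre, and Ythdc1+/+ (WT) mice carried Mx1-Cre without the floxed allele. Both received pIpC, an interferon inducer, and donors were 8 weeks old. Mx1-Cre is switched on by interferon and is known to act in other cell types as well as HSCs, and where the allele was deleted cannot be read from these counts. The 12 libraries belong to the samples KO176, KO177 and KO209 and WT178, WT180 and WT207, named by genotype and title number, with 2 libraries each. It is not stated whether 1 number is 1 mouse. Libraries of a number were summed, and 3 KO samples were set against 3 WT samples, so the p-values measure the spread between these samples only.

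Complex I (NADH dehydrogenase) and complex II (succinate dehydrogenase) pass electrons to ubiquinone, complex III hands them on to cytochrome c, and complex IV (cytochrome c oxidase) reduces oxygen. Complexes I, III and IV pump protons, and complex V (ATP synthase) uses the gradient to make ATP. Quiescent HSCs are known to lean on glycolysis, and to use this chain more when they divide and differentiate. A few central subunits are encoded by mitochondrial DNA, and the 37 mitochondrial genes of the table had 0 counts in every library, so only the nuclear side of the complexes could be read.

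Library totals were 20809936 to 24563170 counts. Ythdc1, whose deleted part the gene-level count does not separate from the rest, had 56.8, 69.6 and 69.6 CPM in KO and 76.0, 72.6 and 92.6 CPM in WT samples, and its difference did not pass the test (log2 fold change -0.30 ± 0.13 SE, edgeR adjusted p = 0.52). The groups did not overlap for this gene. CPM are counts relative to the library total, here scaled by the TMM method, which sets most genes level between samples. Of 10 HSC markers, all were detected, 1 was higher and 9 lower in KO samples (median log2 fold change -0.34), 3 of them at an unadjusted p under 0.05. Of 10 granulocyte genes, 10 were higher (median 0.41), and their summed level was 23987, 14502 and 12218 CPM in KO176, KO177 and KO209 against 13788, 12747 and 10505 CPM in WT178, WT180 and WT207. Mpo alone held 10910, 5183 and 2222 CPM of this in KO and 4775, 5388 and 2064 CPM in WT samples. Relative to each gene's own mean, the median gene of the list lay at 0.32, 0.02 and 0.15 in KO samples. In WT samples it lay at -0.01, -0.40 and -0.11 (log2 of CPM plus 0.5). The genes of this list did not move alike. Mpo, Prtn3 and Ctsg were lower in KO209 and WT207 than in all other samples. Ngp, S100a8 and S100a9 were highest in KO209, and the remaining genes followed neither order. Ctsg had 2053, 1057 and 326 CPM in KO and 751.5, 1077 and 364 CPM in WT samples. Ngp had 3307, 2739 and 3445 CPM in KO and 2733, 1792 and 2489 CPM in WT samples. In bulk RNA, fewer cells of a type and less RNA per cell cannot be told apart. The part of other cells in the results below was not tested.

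Together the 99 genes took 2.34% of the scaled counts in KO and 2.24% in WT samples. Their summed level was 27116, 24083 and 18976 CPM in KO176, KO177 and KO209, against 22814, 23453 and 20957 CPM in WT178, WT180 and WT207. The KO samples therefore held both the highest and the lowest sum, and the WT samples lay between them. The means were 23392 ± 4114 CPM in KO and 22408 ± 1297 CPM in WT (SD, n = 3 each). The sums of the 2 libraries of a number differed by 0.01 to 0.16 on the log2 scale, and both libraries of KO209 (20052 and 18485 CPM) lay below all 4 of KO176 and KO177 (22984 to 27339 CPM).

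**Figure D1:**
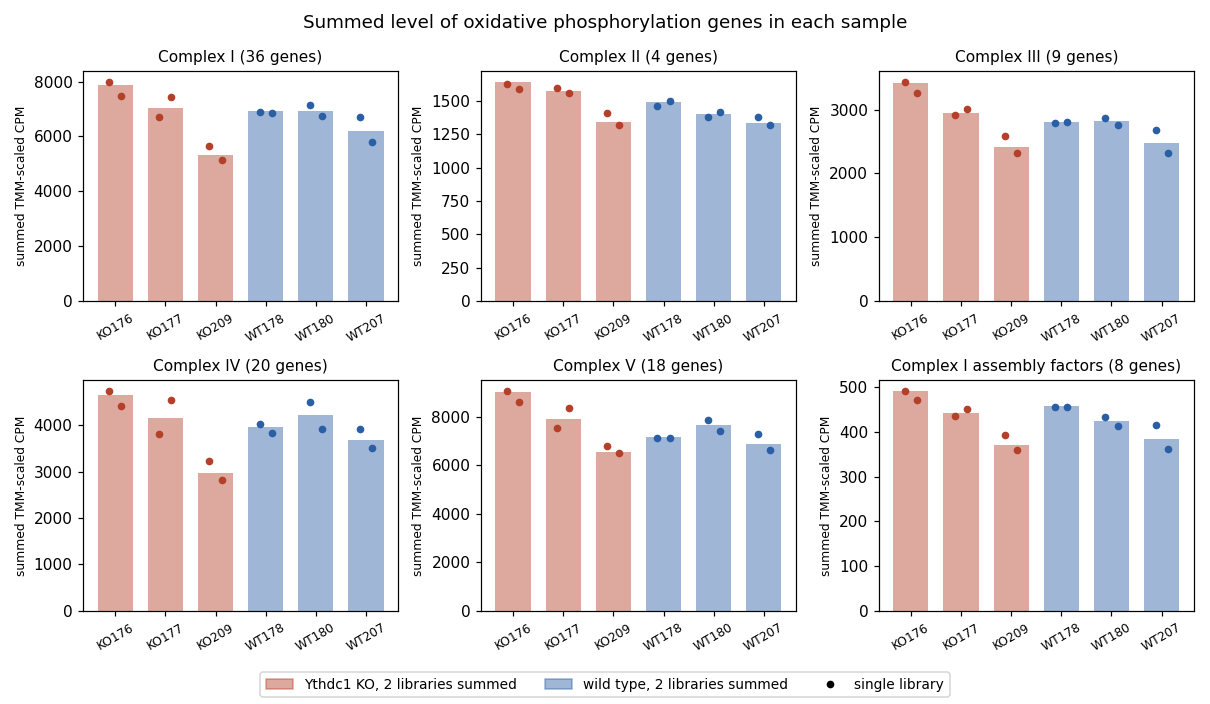
Summed TMM-scaled CPM of the genes of each complex in the 6 samples (bars, 2 libraries summed) and in single libraries (points), with KO in red and WT in blue. KO176 is the highest bar and KO209 the lowest in complexes I, III, IV and V, while in complex II KO209 (1340 CPM) is level with WT207 (1338 CPM).

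Complex V was the most abundant by summed level, with 7817 ± 1230 CPM in KO and 7230 ± 381 CPM in WT samples. Complex I followed with 6752 ± 1308 CPM in KO and 6683 ± 429 CPM in WT, and complex IV with 3928 ± 867 CPM in KO and 3952 ± 269 CPM in WT. Complex III stood at 2933 ± 501 CPM in KO and 2704 ± 198 CPM in WT, and complex II at 1519 ± 159 CPM in KO and 1409 ± 77 CPM in WT (SD, n = 3 each). Each genotype difference was smaller than the SD of the KO samples. Assembly factors of complex I, which help to build the complex and are not part of it, summed to only 435 ± 61 CPM in KO and 422 ± 37 CPM in WT.

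Of the 99 members, 93 passed the filter on low counts and were tested among 18234 genes. None passed the edgeR quasi-likelihood test for genotype at an adjusted p of 0.05, against a background of 0.137% of all genes (25 genes), and none did so with DESeq2 or voomLmFit. Only 1 member had an unadjusted p under 0.05, where 9.48% of all genes had one. Members were higher in KO samples in 42 cases and lower in 51, with a median log2 fold change of -0.01, as for all genes (-0.01). In 88 of 93 members the estimate lay within 0.25 of 0 on the log2 scale. Its 95% interval, not adjusted for the number of genes, had a median half-width of 0.34. In 29 members the interval reached beyond 0.5 in at least 1 direction, so changes of that size are not excluded for them. Smaller changes of the other members may also have gone undetected.

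That 1 member was Cox6b2, the isoform of subunit 6b known from testis. Its level was 44.98, 52.9 and 43.7 CPM in KO176, KO177 and KO209, against 59.8, 67.1 and 64.4 CPM in WT178, WT180 and WT207. Every KO sample lay below every WT sample. The log2 fold change was -0.43 ± 0.12 SE (95% interval -0.69 to -0.18, edgeR adjusted p = 0.27), between -0.53 and -0.38 when 1 sample was left out. When the 12 libraries were treated as separate samples, Cox6b2 was the 1 member called (edgeR adjusted p = 0.011), against a background of 2.6% of genes called lower in that fit, which counts the 2 libraries of a number as independent. Its widely used counterpart Cox6b1 had 432, 387 and 272 CPM in KO and 378, 386 and 368 CPM in WT samples (log2 fold change -0.05), and these groups overlapped.

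Samples of the genotypes did not overlap in 7 members. Members higher in every KO sample numbered 5 of 93, among them Atp5f1, Ndufa10, Ndufv1 and Sdhc, against 7.75% of all genes. Cox6b2 and the pseudogene Cox6c2 were lower in every KO sample, 2 of 93 against 8.59% of all genes. Both shares of the members (5.38% and 2.15%) lay below those over all genes with TMM scaling, but not on raw totals. There 9 members were higher and 10 lower without overlap (9.68% and 10.8%), against 6.14% and 9.35% of all genes.

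Within complex I, the 7 core subunits carry the flavin and the iron-sulfur clusters or line the path to ubiquinone, and the 29 accessory subunits surround them. Of the core subunits 5 were higher in KO samples (median log2 fold change 0.11), and of the accessory subunits 8 were (median -0.07). None of these passed the test. Ndufs1, the largest of the iron-sulfur subunits, had 168, 136 and 127 CPM in KO and 131, 111 and 110 CPM in WT samples, with a log2 fold change of 0.30 ± 0.14 SE (edgeR adjusted p = 0.53). WT178 lay within the KO range. Ndufv1, which binds NADH and the flavin, had 312, 285 and 253 CPM in KO and 241, 253 and 224 CPM in WT samples (log2 fold change 0.24 ± 0.12 SE, edgeR adjusted p = 0.57). Both were among the members of complex I with the smallest p, and leaving out KO176 reduced each to 0.18.

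Levels of complex I subunits differed widely even though each is built into the complex in similar number. Per kb of annotated exon, which pools all transcripts of a gene and so understates genes with long rare exons, they lay between 3.44 CPM (Ndufb2) and 377 CPM (Ndufa2), with a median of 126 CPM. Ndufa2, an accessory subunit at the matrix arm, had 253, 218 and 155 CPM in KO and 232, 234 and 204 CPM in WT samples. The KO samples enclosed the WT samples. Ndufa1, a small membrane subunit encoded on the X chromosome, had 89.2, 103 and 79.9 CPM in KO and 102, 104 and 90.1 CPM in WT samples (log2 fold change -0.12 ± 0.13 SE). Ndufa11, which is needed for a stable membrane arm, had 145, 127 and 76.8 CPM in KO and 125, 131 and 111 CPM in WT samples (log2 fold change -0.07 ± 0.21 SE). Neither gene separated the genotypes.

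Assembly factors of complex I had lower levels, between 12.1 and 72.6 CPM per kb. Of the 8 factors, 5 were higher in KO samples and none passed the test (median log2 fold change 0.09). Ndufaf8, the most abundant per kb, had 70.0, 60.5 and 40.7 CPM in KO and 68.4, 70.0 and 53.9 CPM in WT samples. Ndufaf6 had 72.7, 58.3 and 42.8 CPM in KO and 54.9, 51.4 and 41.7 CPM in WT samples (log2 fold change 0.23 ± 0.19 SE, and 0.04 without KO176). In both genes KO209 was at or near the lowest sample. Ndufaf7, a methyltransferase needed to build the complex, differed by 0.10 ± 0.11 (SE), and Ndufaf1, which acts on the membrane arm, by 0.10 ± 0.11 (SE).

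All 4 genes of complex II had positive log2 fold changes between 0.08 and 0.14, none past the test. Sdha, the flavoprotein that oxidises succinate, had 666, 581 and 515 CPM in KO and 576, 495 and 544 CPM in WT samples (log2 fold change 0.13 ± 0.14 SE). Sdhb, the iron-sulfur subunit, was the most abundant per kb (193 CPM) and had 511, 472 and 348 CPM in KO and 448, 446 and 368 CPM in WT samples. The genotypes overlapped in both. The membrane anchor Sdhc had 280, 300 and 282 CPM in KO and 267, 270 and 248 CPM in WT samples (log2 fold change 0.14 ± 0.11 SE, edgeR adjusted p = 0.73), and the other anchor, Sdhd, had 201 ± 17.5 CPM in KO and 189 ± 10.2 CPM in WT samples (SD, n = 3 each). In both anchors the lowest sample was WT207, and KO209 lay at or above KO176.

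In complex III, the catalytic subunits Cyc1 (cytochrome c1) and Uqcrfs1 (the Rieske protein) and the core proteins Uqcrc1 and Uqcrc2 were all higher on average in KO samples, with log2 fold changes of 0.13 to 0.24, and 4 of the 5 small subunits were lower (median -0.04). None passed the test. Uqcrc1 had 1081, 944 and 818 CPM in KO and 872, 838 and 693 CPM in WT samples (log2 fold change 0.24 ± 0.15 SE, edgeR adjusted p = 0.65). Uqcrfs1 had 248.6, 206.9 and 183 CPM in KO and 185, 192 and 163 CPM in WT samples (log2 fold change 0.24 ± 0.14 SE). Both sets overlapped in KO209 only. The small subunit Uqcr11, the most abundant of complex III per kb (366 CPM), had 298, 230 and 167 CPM in KO and 244, 256 and 214 CPM in WT samples. Uqcrc2 differed by 0.13 ± 0.12 (SE).

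Several subunits of complex IV are encoded by more than 1 gene, with 1 form used in most tissues and others known from single tissues. HSCs used the widely expressed forms. Cox4i1 stood at 459 CPM per kb and Cox4i2, the form known from lung, at 5.24 CPM per kb. Cox6a1 stood at 645 CPM per kb, the highest of all members, and Cox6a2, a heart and muscle form, at 13.7 CPM per kb. For subunit 6b, Cox6b1 stood at 523 CPM per kb and the testis form Cox6b2 at 50.1 CPM per kb. Cox7a2 reached 194 CPM per kb and the muscle form Cox7a1 1.76 CPM per kb. No sample of the rarer form reached the lowest sample of its counterpart in these 4 pairs. For subunit 7b, Cox7b stood at 177.3 CPM per kb, and Cox7b2, a testis form, had 9 counts in all libraries together. For subunit 8, Cox8a stood at 612 CPM per kb, Cox8c had 5 counts, and the muscle form Cox8b had 0 counts in 12 libraries, which allows up to 0.0109 CPM over their pooled total (3 counts, counting error only). Ndufa4, which is a subunit of complex IV despite its name, stood at 330 CPM per kb, and its hypoxia-induced relative Ndufa4l2 had 15 counts.

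**Figure D2:**
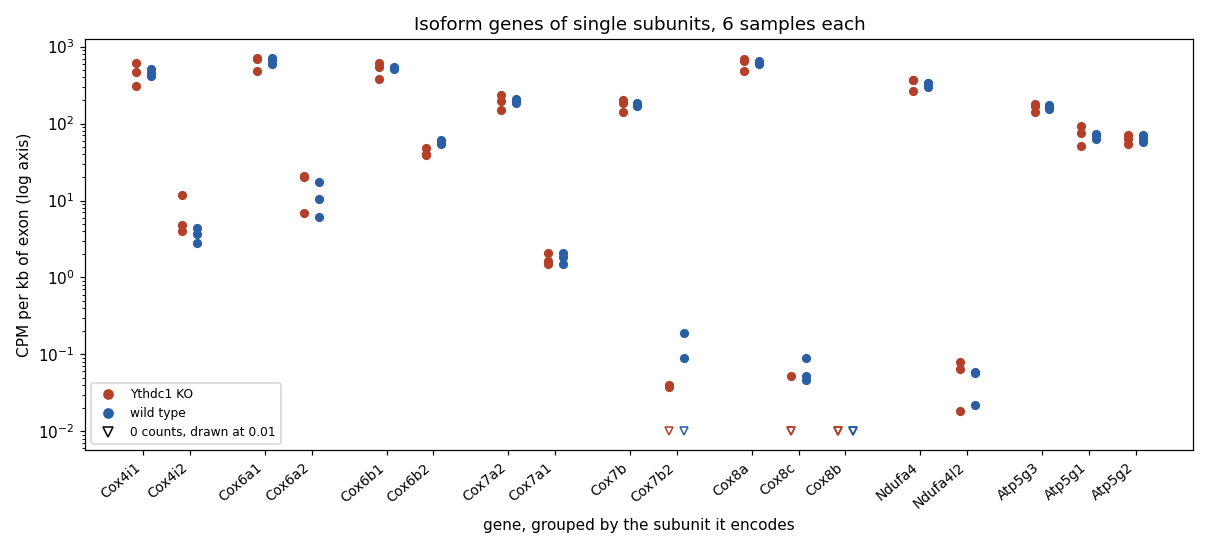
Level of isoform genes in CPM per kb of exon on a log axis, 3 KO samples (red, left) and 3 WT samples (blue, right) per gene, with open triangles for samples at 0 counts. Cox6b2 is the isoform whose genotypes do not overlap, Cox4i2 has a single high point in KO176, and Cox8b is at 0 counts in all 6 samples.

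Apart from Cox6b2, no tested isoform gene separated the genotypes. Cox4i1 had 945, 728 and 472 CPM in KO and 701, 784 and 641 CPM in WT samples (log2 fold change 0.01 ± 0.22 SE). Cox4i2 had 9.30, 3.17 and 3.76 CPM in KO176, KO177 and KO209, and 2.88, 3.43 and 2.24 CPM in WT178, WT180 and WT207. KO176 alone was high, at 9.28 and 8.95 CPM in its 2 libraries. The log2 fold change of Cox4i2 was 0.91 ± 0.42 (SE, edgeR adjusted p = 0.54) with KO176 and 0.29 without it. Cox6a1 had 506, 487 and 335 CPM in KO and 465, 501 and 422 CPM in WT samples. Cox7a2l, which links complexes III and IV in supercomplexes, varied little, with 183, 193 and 177.7 CPM in KO and 196, 198 and 187 CPM in WT samples (log2 fold change -0.07 ± 0.11 SE).

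In complex V, the subunits of the catalytic F1 head had a median log2 fold change of 0.14, and those of the stalk and membrane part of -0.01. Atp5b, the catalytic beta subunit, had the highest CPM of all members, with 2572, 2194 and 2047 CPM in KO and 1879, 2140 and 1932 CPM in WT samples (log2 fold change 0.20 ± 0.14 SE, edgeR adjusted p = 0.70). The F1 gamma subunit Atp5c1 had 638, 602 and 523 CPM in KO and 493, 534 and 480 CPM in WT samples (log2 fold change 0.23 ± 0.13 SE). Only KO209 overlapped the WT samples there. Atp5f1, the b subunit of the peripheral stalk, had 606, 540 and 524 CPM in KO and 477, 500 and 429 CPM in WT samples (log2 fold change 0.25 ± 0.12 SE, edgeR adjusted p = 0.57). The c ring is made of 1 protein encoded by 3 genes that differ in their import sequence. Of these, Atp5g3 stood at 164 CPM per kb, Atp5g1 at 71.3 and Atp5g2 at 63.3 CPM per kb, with log2 fold changes of -0.01 ± 0.13, 0.05 ± 0.20 and -0.01 ± 0.13 (SE).

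The members were alike in how they ordered the samples. KO176 was the highest sample in 67 of 93 members, against 26.6% of all genes, and KO209 the lowest in 69, against 19.9%. Both held in 48 members (51.6%), against 8.21% of all genes. WT207 was the lowest in 18 more, where 16.2% of all genes were lowest in that sample. Relative to each gene's own mean, the median member lay at 0.24 in KO176, 0.07 in KO177 and -0.34 in KO209, against 0.06 in WT178, 0.07 in WT180 and -0.10 in WT207 (log2 of CPM plus 0.5). Members are not replicates, and these counts describe 6 samples. With CPM of the raw totals in place of TMM, KO176 was the highest in 36 members (12.9% of all genes). There KO209 was the lowest in 63 (11.8% of all genes), with both in 25 against 3.14% of all genes.

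**Figure D3:**
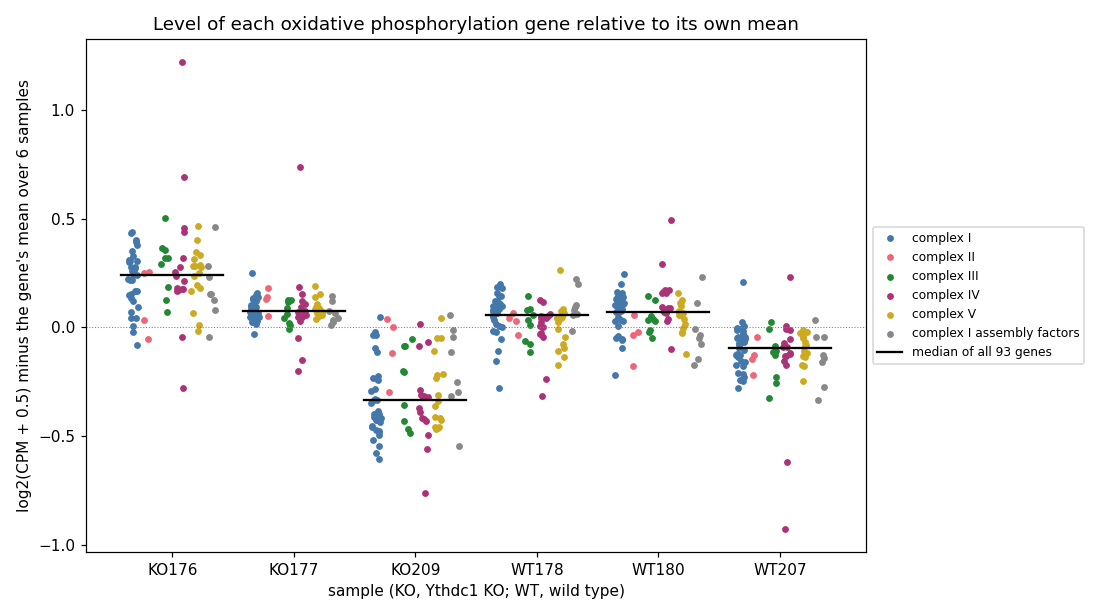
Each point is 1 of the 90 tested genes that are not pseudogenes, placed by its log2(CPM + 0.5) minus its own mean over the 6 samples, coloured by complex, and the black line is the median of all 93 tested members. Genes of every complex lie mostly above 0 in KO176, and those of each complex but complex II (pink, 2 of 4 genes above 0) lie mostly below 0 in KO209.

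The spread of the KO samples exceeded that of the WT samples in 85 of 93 members (median SD 0.26 in KO and 0.10 in WT on the log2 scale), which was so for 61.0% of all genes. Between the 2 libraries of a number the median SD was 0.12, and between sample numbers of a genotype 0.21. The second was larger in 80 members.

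The samples with the higher title numbers, KO209 and WT207, were set against KO176, KO177, WT178 and WT180, with genotype as a covariate. The meaning of the numbers is not stated. The members were lower in KO209 and WT207 in 92 of 93 cases, with a median log2 difference of -0.32, against 0.004 over all genes, of which 49.4% were lower. In 64 members both samples of the higher numbers lay below all 4 others, against 14% of all genes. An unadjusted p under 0.05 with a lower level was seen in 57 members, against 10% of all genes, but after adjustment only 1 member was called lower, against 0.225% of all genes. DESeq2 called 9 members (background 3.44%) and voomLmFit 17 (background 3.88%). The median was -0.17 without KO209, -0.50 without WT207 and -0.18 on raw totals, where the median of all genes was 0.12.

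Cox6a2 was the called member. It had 4.73 and 4.16 CPM in KO209 and WT207, against 13.8, 14.3, 7.01 and 11.96 CPM in KO176, KO177, WT178 and WT180. Its log2 difference was -1.39 ± 0.22 SE (edgeR adjusted p = 0.032), and it was not called without KO209, without WT180 or without WT207, where its estimate was -1.19, -1.21 and -1.57. Each left-out fit has fewer samples. The next members by p were Ndufaf8 (-0.52 ± 0.12 SE), Ndufb7 (-0.59 ± 0.14 SE), Ndufb8 (-0.54 ± 0.14 SE) and Ndufaf6 (-0.48 ± 0.13 SE), with edgeR adjusted p of 0.091 to 0.11. Ndufb7, a membrane arm subunit on the side of the intermembrane space, had 188 and 242 CPM in KO209 and WT207, against 381, 301, 311 and 302 CPM in KO176, KO177, WT178 and WT180. Ndufb8, another membrane arm subunit, had 157 and 203 CPM in KO209 and WT207, against 301, 239, 256 and 248 CPM in KO176, KO177, WT178 and WT180. Both genes were lower in both samples of the higher numbers, and lower in KO209 than in WT207.

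The genotypes ordered differently within the 2 ranges of numbers. In the lower range the summed level was 27116 and 24083 CPM in the KO samples against 22814 and 23453 CPM in the WT samples. In the higher range it was 18976 CPM in KO209 and 20957 CPM in WT207. KO209 lay below WT207 in 71 members, against 51.9% of all genes, and in the lower range both KO samples lay above both WT samples in 37 members, against 20.8% of all genes. The interaction of genotype and number range called 0 of 93 members, with a background of 0.011%, and edgeR gave 11 members an unadjusted p under 0.05, against 2.98% of all genes. The smallest adjusted p of a member was 0.62. The interaction was negative in 82 members (median -0.33).

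Other gene lists were read in the same samples to show what moved with the members. Mitochondrial ribosomal proteins (77 tested) had medians of 0.22, 0.09 and -0.30 in KO176, KO177 and KO209, against 0.07, 0.03 and -0.14 in WT178, WT180 and WT207, close to those of the members. Cytosolic ribosomal proteins (85 tested) had medians of 0.13, 0.11 and -0.35 in KO and -0.02, 0.14 and -0.02 in WT samples. KO209 was lowest in both lists. The enzymes of the TCA cycle, which supplies NADH to complex I, with those of pyruvate dehydrogenase, were higher in KO samples in 18 of 18 cases (median 0.19), and 3 had an unadjusted p under 0.05 but none an adjusted one. Complex II, which is also part of the cycle, was kept out of that list, so it shares no gene with the members. Cs, the citrate synthase, had 181 ± 15 CPM in KO and 145 ± 5.1 CPM in WT samples (log2 fold change 0.31 ± 0.11 SE, edgeR adjusted p = 0.41).

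**Figure D4:**
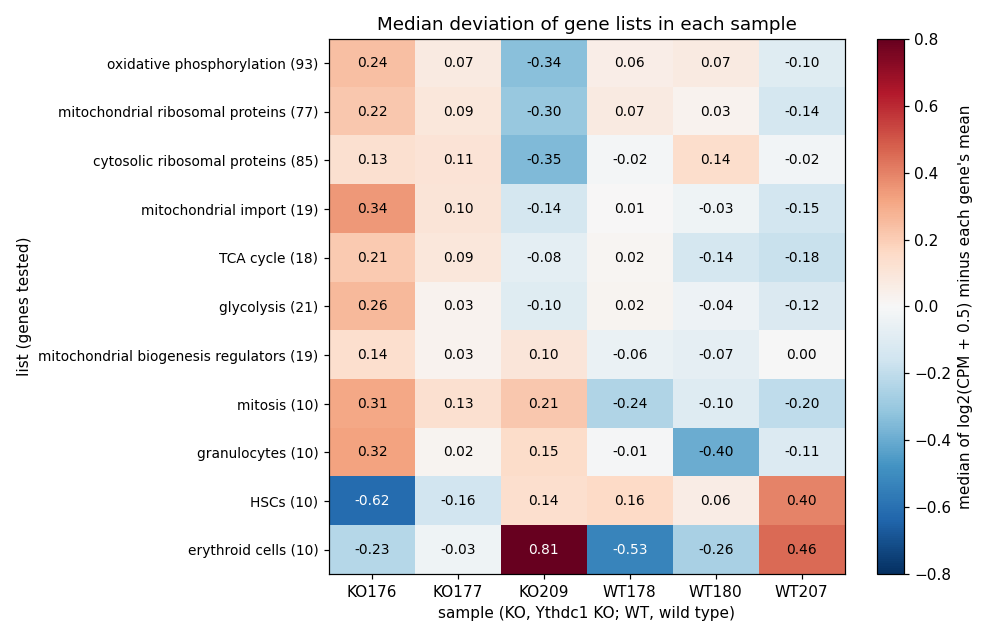
Median over the tested genes of each list of log2(CPM + 0.5) minus each gene's own mean, in the 3 KO samples (left) and the 3 WT samples (right). Oxidative phosphorylation and mitochondrial ribosomal proteins run from 0.24 and 0.22 in KO176 to -0.34 and -0.30 in KO209, and the HSC markers are lowest in KO176 (-0.62).

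Mitochondrial import genes were higher in 15 of 19 cases (median 0.17, none called), with Hspa9, the matrix chaperone that pulls proteins in, at 508 ± 99 CPM in KO and 372 ± 27 CPM in WT samples (edgeR adjusted p = 0.38). Regulators of mitochondrial biogenesis were higher in 17 of 19 cases (median 0.10, none called), with Pprc1, a coactivator of the PGC-1 family, at 72.2 ± 5.5 CPM in KO and 59.7 ± 4.4 CPM in WT samples (edgeR adjusted p = 0.47). Genes of cytochrome c, of nucleotide and phosphate carriers and of ubiquinone supply and use were higher in 12 of 15 cases (median 0.08), and assembly factors outside the rule in 20 of 40 (median -0.004). Pet100, an assembly factor of complex IV, had 37.8 ± 1.8 CPM in KO and 47.5 ± 3.3 CPM in WT samples (edgeR adjusted p = 0.37). Genes of the defence against reactive oxygen were higher in 5 of 9 cases (median 0.001). Glycolytic genes were higher in 14 of 21 cases (median 0.17, none called).

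Of the 10 HSC markers, 7 were lowest in KO176 and 3 (Slamf1, Gata2 and Ly6a) in KO209, and 5 had both KO176 as the lowest sample and KO209 and WT207 above all others. Examples of these 5, picked with their values known, are Procr, Mecom and Fgd5. Procr, the endothelial protein C receptor and an HSC surface marker, had 19.0, 30.4 and 51.2 CPM in KO176, KO177 and KO209, against 43.4, 38.6 and 58.2 CPM in WT178, WT180 and WT207. Mecom, a transcription factor of long-term HSCs, had 10.8, 13.7 and 27.5 CPM in KO and 18.7, 20.5 and 27.0 CPM in WT samples. Fgd5, another HSC marker, had 1.70, 3.36 and 6.93 CPM in KO and 4.35, 4.07 and 7.49 CPM in WT samples. These markers and most members ordered the KO samples in opposite ways. Their part in the members' order was not tested. The other 5 markers did not follow this order. Gata2, a transcription factor of HSCs, was lowest in KO209 with 244, 261 and 197 CPM in KO and 307, 289 and 279.9 CPM in WT samples, and Ly6a, which encodes the sorting marker Sca-1, was highest in KO176 with 526, 313 and 152 CPM in KO and 271, 519 and 175 CPM in WT samples.

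Mitosis genes were higher in KO samples in 10 of 10 cases (median 0.39, 7 at an unadjusted p under 0.05, none called), and their summed level was 1596, 1372 and 1382 CPM in KO against 1103, 1201 and 1078 CPM in WT samples, without overlap. KO209 was not low for these genes. Stromal and endothelial genes were called higher in 3 of 9 cases (Lepr, Adipoq and Sparc), with summed levels of 137, 140 and 136 CPM in KO and 102, 112 and 101 CPM in WT samples. B cell genes were higher in KO samples in 9 of 10 cases (median 0.50, 5 at an unadjusted p under 0.05, none called). They summed to 158, 157 and 118 CPM in KO and 132, 135 and 121 CPM in WT samples, most of it from Cd79b. Macrophage genes were higher in 8 of 10 cases (median 0.59, 4 at an unadjusted p under 0.05, none called). Their sums were 229, 152 and 119 CPM in KO and 122, 140 and 103 CPM in WT samples. Of 10 erythroid genes, 7 were higher in KO209 and WT207 than in the other samples, 5 of them called, and they summed to 72.4, 64.0 and 74.7 CPM in KO and 58.8, 53.7 and 81.4 CPM in WT samples. No marker of these lists was at 0 in all samples. Whether any of them bears on the members was not tested.

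Among the members, the genotype difference followed the length of the coding sequence. Spearman's rho between the log2 fold change and the longest coding length was 0.49 over 90 members, and 0.03 over 14089 genes with a coding length. The members share their libraries and are not independent. Of 64 members under 600 bases, 19 were higher in KO samples (median -0.03), of 13 members from 600 to under 1000 bases, 10 were (median 0.10), and of 13 members of 1000 bases or more, 12 were (median 0.20). Over all genes in the same length classes the medians were -0.03, 0.003 and 0.02. Most of the longest members are catalytic and core subunits. Others of 1000 bases or more are accessory subunits or assembly factors of complex I. Ndufa9, Ndufa10 and Ndufv3 (accessory) differed by 0.22, 0.23 and -0.07, and Ndufaf5 and Ndufaf7 (assembly) by 0.09 and 0.10. The core subunits Ndufs3, Ndufs7, Ndufs8 and Ndufv2, of 636 to 789 bases, differed by 0.01, -0.10, -0.02 and 0.11. Length and role overlapped only in part, and the share of each was not tested. Leaving out 1 sample gave a rho of 0.38 to 0.50. Within single samples, rho between coding length and the deviation from the mean was 0.10, 0.16 and 0.46 in KO176, KO177 and KO209, against -0.30, -0.52 and -0.32 in WT178, WT180 and WT207. Over all genes it was -0.12, -0.13 and 0.28 in the KO samples and -0.22, -0.08 and 0.16 in the WT samples.

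**Figure D5:**
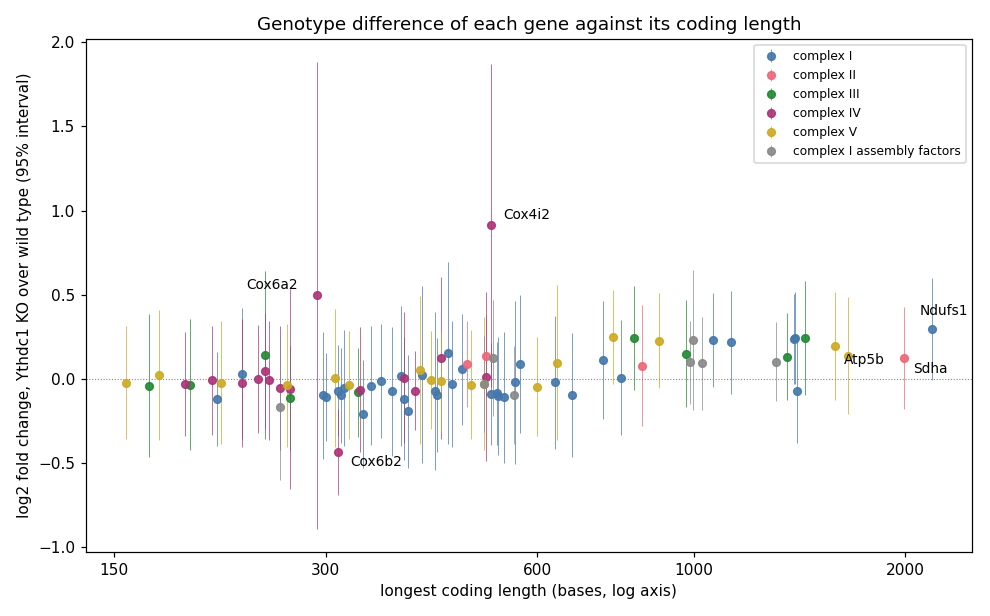
Log2 fold change of KO over WT with its 95% interval against the longest coding length (log axis) for 90 tested members, coloured by complex. Of the 13 members of 1000 bases or more, 12 lie above 0, and of the 64 members under 600 bases, 45 lie below 0.

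Promoters were read because the members ordered the samples alike. Windows of 250 bases before to 50 after the annotated start (RefSeq, GRCm38.p6) matched 74 of the 95 members that are not pseudogenes. Letters known from the binding sites of regulators of these genes were searched on both strands, and the NRF1 letters CGCANGCG were in the windows of 28 of 74 members (37.8%), against 9.22% of all 27025 genes and 17.4% of the genes tested here. The ETS letters CCGGAAG, bound by GABPA, were in 18 (24.3%), against 9.93% of all genes and 18.4% of the tested genes. The YY1 letters AAGATGG were in 11 (14.9%, against 7.28% and 8.06%), and the ESRRA letters TCAAGGTC in 4 (5.41%, against 1.18% and 0.939%). Any of the NRF1, ETS and YY1 letters were in the windows of 47 of 74 members (63.5%), against 23.1% of all genes and 37.1% of the tested genes. A match is a description of the letters and does not show that a factor was bound. The windows below are those of the members with the most CPM per kb in complex IV and complex III (Cox6a1 and Uqcr11), of the F1 gene Atp5c1, of Ndufaf8, and of Cox6b2, the member with the smallest genotype p. Capitals mark the matches, 5′ to 3′ on the strand of the gene.
Cox6a1 (chr5:115348909-115349208, minus strand): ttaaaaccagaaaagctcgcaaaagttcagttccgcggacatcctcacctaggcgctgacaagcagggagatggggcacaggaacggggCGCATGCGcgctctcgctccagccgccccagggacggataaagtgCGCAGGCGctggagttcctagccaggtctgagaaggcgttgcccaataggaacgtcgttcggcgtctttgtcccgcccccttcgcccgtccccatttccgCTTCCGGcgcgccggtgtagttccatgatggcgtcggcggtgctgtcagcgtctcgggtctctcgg
Uqcr11 (chr10:80406772-80407071, minus strand): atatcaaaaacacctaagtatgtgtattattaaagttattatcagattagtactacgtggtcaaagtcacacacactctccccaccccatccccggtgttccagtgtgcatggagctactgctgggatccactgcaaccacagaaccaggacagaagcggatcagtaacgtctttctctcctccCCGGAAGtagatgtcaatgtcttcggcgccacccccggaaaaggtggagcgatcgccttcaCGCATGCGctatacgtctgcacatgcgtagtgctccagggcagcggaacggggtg
Atp5c1 (chr2:10080383-10080682, minus strand): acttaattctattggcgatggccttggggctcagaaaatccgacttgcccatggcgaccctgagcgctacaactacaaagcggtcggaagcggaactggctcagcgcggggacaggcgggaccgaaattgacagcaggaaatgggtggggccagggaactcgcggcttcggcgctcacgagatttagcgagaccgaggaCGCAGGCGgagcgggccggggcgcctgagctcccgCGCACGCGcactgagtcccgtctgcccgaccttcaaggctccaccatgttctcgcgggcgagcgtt
Ndufaf8 (chr11:120098684-120098983, plus strand): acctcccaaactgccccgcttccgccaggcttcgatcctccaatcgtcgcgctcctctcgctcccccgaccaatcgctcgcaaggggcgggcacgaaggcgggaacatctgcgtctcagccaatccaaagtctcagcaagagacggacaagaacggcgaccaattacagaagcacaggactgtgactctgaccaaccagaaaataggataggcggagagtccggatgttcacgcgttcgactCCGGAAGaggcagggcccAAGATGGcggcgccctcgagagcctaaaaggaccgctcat
Cox6b2 (chr7:4753045-4753344, minus strand): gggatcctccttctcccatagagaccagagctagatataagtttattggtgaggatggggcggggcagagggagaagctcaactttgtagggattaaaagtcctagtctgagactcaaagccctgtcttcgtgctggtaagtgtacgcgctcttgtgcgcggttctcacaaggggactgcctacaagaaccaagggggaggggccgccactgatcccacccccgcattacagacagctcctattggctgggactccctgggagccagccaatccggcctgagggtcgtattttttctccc

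The window of Cox6a1 holds the NRF1 letters 2 times and the ETS letters 1 time, that of Uqcr11 each of them 1 time, that of Atp5c1 the NRF1 letters 2 times, and that of Ndufaf8 the ETS and the YY1 letters 1 time each. The window of Cox6b2 holds none of the 4, which says only that these letters are not within these bases. A second annotated window of Atp5c1, not printed, holds the NRF1 letters 1 time. The window of Atp5b, the member of complex V with the most CPM per kb, is also not printed and holds none of the 4. Cox6a1, Uqcr11 and Atp5c1 had their highest level in KO176, and Cox6a1, Uqcr11 and Ndufaf8 their lowest in KO209, while Atp5c1 was lowest in WT207 and Cox6b2 was highest in WT180 and lowest in KO209.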

How the data were processed

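HSCs of 2 genotypes were profiled by RNA-seq of polyA RNA in 12 libraries, made per the labels with a SMARTer low-input cDNA kit. The deposited values are unnormalized counts (read pairs assigned to each gene), made by the authors with featureCounts 2.0.1 (named in the submitters' processing notes and the file header) on GENCODE vM23 genes of mm10. Counting did not use strand, and 5 members share over 20% of their exon length with another gene (Ndufa13, Ndufb6, Ndufaf2, Atp5o and a second Atp5o entry with 0 counts). The study's methods also name an alignment with FPKM values, which are not used here. Reads with several matches were not counted, so genes with close pseudogenes may be understated. The 9 entries with -ps in their symbol were left out. Of these, Ndufb1-ps (1426 counts per library on average) is annotated as a long noncoding RNA at a bidirectional promoter. The others are annotated as processed pseudogenes.

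The 2 libraries of a sample number were not copies of each other (their counts gave a chi-square of 5.62 to 19.0 for each degree of freedom) and were summed. Testing used edgeR 4.0.16 (quasi-likelihood, robust, R 4.3.3) after filterByExpr (minimum count 10, minimum total 15) and TMM scaling, with Benjamini-Hochberg adjustment over 18234 genes. Of the 6 members not tested, 2 had no read. DESeq2 1.42.0 and voomLmFit (edgeR with limma 3.58.1) served as alternatives, with other scalings and filters and with each sample left out. In 3 simulations of the 3 against 3 comparison over 17789 to 17803 genes, 58.6% to 62.0% of the genes changed 2-fold and 93.3% to 98.9% of those changed 4-fold were recovered.

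Named genes were, in each complex, the member with the highest CPM per kb and the 3 with the smallest genotype p, the 5 with the smallest p between number ranges, the isoform families, and up to 3 genes per other list. Ndufa10, Cyc1, Cox6c2, Ndufb2, Procr, Mecom, Fgd5, Slamf1 and Ly6a were not named by this rule, and their values were known when they were picked. Also outside this rule, and named with their values known, were Ndufa9, Ndufv3, Ndufaf5, Ndufs3, Ndufs7, Ndufs8 and Ndufv2. So were Mpo, Prtn3, Ctsg, S100a8, S100a9, Cd79b and Pecam1. Coding lengths are from GENCODE vM21. One member that the rule names is not reported here. The members, the lists and the tests were chosen with earlier results of these data known, and the mitosis and ribosomal protein lists, the interaction and the medians on raw totals were added after seeing the data. Figures were drawn with matplotlib 3.10.9 in Python 3.11.15.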

Additional observations from a re-analysis of the deposited data

Results flagged for a closer look

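The summed level of the members differed between genotypes in opposite directions in the 2 ranges of title numbers. In the lower range KO176 and KO177 lay above WT178 and WT180, with a log2 ratio of the means of 0.146, and KO209 lay below WT207, with a log2 ratio of -0.143. Each genotype has 1 sample in the higher range, so the difference between the ranges was not tested on the sum. Tested gene by gene in edgeR, the interaction called 0 of 93 members. With CPM of the raw totals the sums were 24414 and 23514 CPM in the KO samples against 22568 and 23495 CPM in the WT samples of the lower range, and 20442 CPM in KO209 against 22150 CPM in WT207. Complex IV showed the widest gap between the ranges, with a log2 ratio of 0.11 in the lower range and -0.31 in the higher one, and complex II the narrowest, with 0.15 and 0.003.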

How the results depend on the processing

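No member was called for genotype under 16 of the alternatives and under the interaction, and 1 was with the 12 libraries as separate samples. In the comparison of number ranges 1 member was called, against 46 with the 12 libraries as separate samples (18.4% of all genes), 17 with voomLmFit and the sample number as a random block (7.41%), 17 with a replicate block on the digit after the number (6.85%), 9 with DESeq2 (5.68%) and 0 with the stricter filter (0.35% of all genes, minimum count 50, where Cox6a2 had an adjusted p of 0.052). Leaving out 1 sample gave 0 to 1 members, with 0 without KO209, without WT180 and without WT207. The digits only name libraries, and the replicate block changed no genotype call. Members without overlap between genotypes numbered 7 (7.53%, against 16.3% of all genes), 19 on raw totals (20.4% against 15.5%) and 2 with 6 libraries against 6 (2.15% against 3.24%). The median genotype difference lay between -0.13 (without KO176) and 0.15 (without KO209). The sums per complex depended on the scaling. On raw totals complex I stood at 7104, 6876 and 5734 CPM in KO and 6844, 6955 and 6540 CPM in WT samples. Complex V of KO176 stood at 8105 CPM on raw totals, against 9002 CPM with TMM. For 21 genes named for their p, 360 of the recomputed values kept their side of the threshold, 17 newly passed it (Cox6b2 for genotype and Ndufaf8, Ndufaf6, Ndufb7 and Ndufb8 for the number range), 4 no longer passed it (each of Cox6a2) and none changed sign. The causes were not tested. With 20809936 to 24563170 counts per library, rare isoforms such as Cox7b2 and Cox8c had too few counts to compare.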
